A study of Mus musculus with 6 samples.

Results

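Early activation surface molecules are membrane proteins that T cells put on their surface in the first hours after antigen recognition. They were chosen by gene symbol as Cd69, Cd83, Icos, Cd200, Tfrc, Icam1, Cd44 and Ly6a, taking every probe set whose platform symbol was exactly 1 of these names. Of the 8 genes, 7 had a probe set, out of 18193 genes on the array with a probe set of 1 symbol. Ly6a had none under its symbol and was not analysed here. The 7 genes held 17 of 45101 probe sets, 3 of them array control probe sets for Tfrc, and the brightest by mean over the 6 arrays represented each gene.

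The cells were described as naive CD8+ T cells from spleens of C57/BL6 mice, either Nrdp1+/+ (wild type) or Nrdp1-/-, a line lacking the E3 ubiquitin ligase Nrdp1. Markers of memory-like CD8 T cells and of B cells also had signal on the arrays, as given below. Each genotype was sampled untreated and after 4 h or 8 h with anti-CD3 fixed to the plate at 5 µg/ml plus dissolved anti-CD28 at 1 µg/ml, antibodies that engage the T cell receptor and a costimulatory receptor. RNA of each of the 6 groups was hybridised to 1 Affymetrix expression array, whose probe sets lie near the 3' ends of transcripts. The labels give neither the number of mice per RNA nor how the Nrdp1 allele was made, so the p-values below measure only the spread between these arrays.

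When the T cell receptor is engaged together with CD28, calcium, MAP kinase and NF-kB signals switch on new transcripts within hours. The surface proteins among them hold the cell in lymphoid tissue (Cd69), give or receive costimulatory and inhibitory signals (Icos, Cd83, Cd200), import iron for growth (Tfrc) and mediate adhesion (Icam1, Cd44). Cell sorters use several of them, above all Cd69 and Cd44, to tell activated or antigen-experienced T cells from naive ones. The arrays report transcript only, and part of the surface display of these proteins is set after transcription.

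Values are MAS5 signals on a linear scale, which the authors had scaled to a trimmed mean of 500.0 on every array, and the median signal was 61.5 to 68.6. Differences are on the log2(signal + 4.45) scale, with a standard error (SE) and an adjusted p from limma over 10838 genes and 6 arrays, called below 0.05. The fit adds time and genotype, so that each time is represented by 1 array of either genotype and the spread is how far the arrays depart from that sum. It cannot tell noise from a response that truly differs by genotype. Although the extraction label names colon, all 9 measured CD8 and T cell markers were above the median on every array and Cd4 lay between 6.06 and 15.7. Of 15 colon epithelium and smooth muscle markers 8 lay below the median on all arrays, while Epcam (173 to 529) and Lgals4 (271 to 444) were above it on all, and Car1 was 34.0 to 36.4 in wild type and 135 to 286 in Nrdp1-/- cells. The brightest probe set of Rnf41, which encodes Nrdp1, differed by -0.46, -0.21 and -0.42 between Nrdp1-/- and wild type (untreated, 4 h, 8 h). Its other probe sets differed in both directions, from -1.66 to 0.52, and where the deletion lies among the 4 was not determined, so they are no check of the labels.

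All 7 measured molecules had a higher signal at 4 h than in untreated cells of the same genotype, in both genotypes, as did 29.1% of all genes tested. In 6 of 7, all except Cd44, both untreated arrays lay below all 4 stimulated arrays, an ordering found in 16.7% of all genes tested. At 4 h 5 of 7 rose (Cd69, Cd83, Icos, Tfrc and Icam1) and 0 fell, where 8.01% of all genes tested were called higher and 5.51% lower. At 8 h 7 of 7 rose and 0 fell, against 9.88% of all genes called higher and 9.26% lower. The median change of the 7 was 1.07 at 4 h and 1.28 at 8 h, beside -0.05 and -0.07 over all genes. Both times are compared with the same untreated arrays, so the counts are not independent. With eBayes without an intensity trend, 2 rose at 4 h (Cd69 and Cd83) and 3 at 8 h (those and Tfrc), beside 0.766% and 0.95% of all genes.

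**Figure D1:**
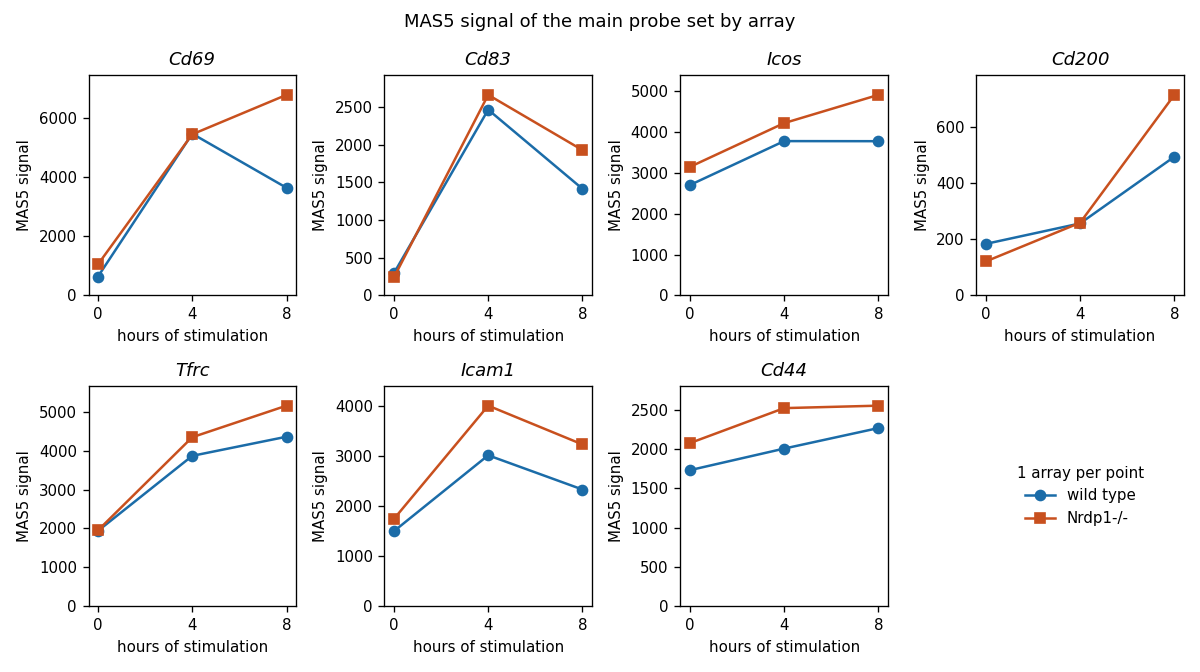
MAS5 signal (linear, axes from 0) of the main probe set of each gene against hours of stimulation, with 1 array per point, wild type in blue circles and Nrdp1-/- in orange squares. Cd69 runs from 637 to 5458 and back to 3633 in wild type but on to 6769 in Nrdp1-/-, Cd83 and Icam1 are highest at 4 h in both genotypes, and Cd200, Tfrc and Cd44 are highest at 8 h.

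Cd69, a C-type lectin that keeps T cells in lymph nodes by drawing the egress receptor S1pr1 into the cell, was among the most strongly induced genes tested. Its signal in wild-type cells was 637 untreated, 5458 at 4 h and 3633 at 8 h. In Nrdp1-/- cells it was 1048, 5437 and 6769 at the same times. Every stimulated array exceeded both untreated ones, and the genotypes were level at 4 h while the Nrdp1-/- array was higher untreated and at 8 h. In wild type the rise was 8.51-fold at 4 h and 5.67-fold at 8 h, in Nrdp1-/- 5.17-fold and 6.44-fold. In the fit Cd69 rose by 2.73 ± 0.18 at 4 h (limma, adjusted p = 2.04e-06), the 35th highest change of 10838 genes, and by 2.59 ± 0.18 at 8 h (adjusted p = 3.24e-06). The moderated SD that limma used for Cd69, drawn towards that of genes of similar signal, was 0.18. Only the neighbouring 4 h levels of the genotypes, 0.005 apart, lay closer together than that. S1pr1 itself, the receptor for the exit signal, fell by 0.62 at 4 h (-0.62, adjusted p = 0.00625) and was lower in Nrdp1-/- cells (-0.60, adjusted p = 0.004205).

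Cd83, an immunoglobulin-family protein known from mature dendritic cells that stabilises class II MHC and CD86 on the surface, had the largest change of the members at 4 h. Wild-type signals were 295 untreated, 2465 at 4 h and 1415 at 8 h. The Nrdp1-/- signals were 239, 2662 and 1929. Both genotypes peaked at 4 h and had come part of the way down by 8 h, with all 4 stimulated arrays far above the untreated ones. Cd83 rose by 3.25 ± 0.16 at 4 h (limma, adjusted p = 3.88e-07), the 23rd highest change of the genes tested, and by 2.62 ± 0.16 at 8 h (adjusted p = 1.68e-06). Cd86, whose costimulatory product Cd83 keeps on the cell surface, was at 0.50 at 4 h (adjusted p = 0.157) and did not pass.

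Icos, the inducible costimulator of the CD28 family, already had a signal of 2699 in untreated wild-type and 3143 in untreated Nrdp1-/- cells. After 4 h it was 3773 and 4213, and after 8 h 3771 and 4904, in wild type and Nrdp1-/- in that order. The untreated arrays were lowest, and the wild-type arrays at 4 h and 8 h were 0.001 apart. The rise was 0.45 ± 0.10 at 4 h (limma, adjusted p = 0.0145) and 0.56 ± 0.10 at 8 h (adjusted p = 0.00377), which is 1.37-fold and 1.48-fold. A dimmer pair of Icos probe sets changed by 0.38 each at 4 h and by 0.44 and 0.57 at 8 h. The call at 4 h was lost without the untreated wild-type array (adjusted p = 0.0638), the wild-type 4 h array (0.0614), the untreated Nrdp1-/- array (0.138) or the trend (0.147). Its relatives Cd28 and Ctla4, the activating and inhibitory receptors for CD80 and CD86, were at -0.13 (adjusted p = 0.468) and 0.12 (adjusted p = 0.6003) at 4 h. At 8 h Cd28 fell (-0.33, adjusted p = 0.04225). Icosl, the ligand of Icos on antigen-presenting cells, was at 0.33 at 4 h (adjusted p = 0.674).

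Cd200 encodes a membrane glycoprotein that delivers an inhibitory signal to myeloid cells through Cd200r1. Its promoter is shown because more of its rise came after 4 h than before. The 250 bases before the gene's start (RefSeq, GRCm38.p6, chr16:45409054-45409303, minus strand, written 5′ to 3′ along the gene) had a GC content of 42.4%, where the median over 32851 such windows was 52.4%. None of 5 searched motifs matched there, so no letter is in capitals.
Cd200: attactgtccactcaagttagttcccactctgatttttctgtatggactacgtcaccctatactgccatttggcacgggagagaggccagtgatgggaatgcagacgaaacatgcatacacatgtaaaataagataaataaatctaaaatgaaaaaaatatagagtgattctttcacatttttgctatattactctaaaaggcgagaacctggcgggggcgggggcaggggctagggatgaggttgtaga
The motifs, searched on both strands, were the NF-kB site (in 1.41% of all windows), AP-1 TGANTCA (6.75%), the cAMP response element TGACGTCA (1.55%), the interferon-gamma-activated site TTCNNNGAA (GAS, 7.02%) and NFAT GGAAAA (20.4%). Promoter windows were at hand for 4 members, Cd200, Tfrc, Icam1 and Cd44. A match is a description of letters only. Each motif was searched as a fixed pattern, so a site spelled otherwise, such as another form of the NF-kB site, was not looked for.

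In wild-type cells the Cd200 signal was 184 untreated, 257 at 4 h and 496 at 8 h. The Nrdp1-/- signals were 122, 260 and 717. The level climbed at each step in both genotypes, from a lower start to a higher end in Nrdp1-/- cells, and the 4 h arrays were 0.013 apart. Its change at 4 h of 0.77 ± 0.25 did not pass (limma, adjusted p = 0.0627). By 8 h Cd200 rose by 1.96 ± 0.25 (adjusted p = 0.000359), or 3.9-fold, of which 1.19 ± 0.25 came after 4 h (adjusted p = 0.108). The 4 h change passed with arrays centred on their median (adjusted p = 0.0342). It was 1.20 without the untreated wild-type array and 0.34 without the untreated Nrdp1-/- array. Without either 8 h array it stayed at 0.77, since those arrays enter it only through the spread. Cd200r1, the receptor, was at or below a signal of 96.4 on every array.

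Tfrc, the transferrin receptor CD71, takes up iron that dividing cells need. Its promoter window (RefSeq, GRCm38.p6, chr16:32608646-32608895, plus strand) is shown beside that of Cd200 because both genes were highest at 8 h. Cd44, whose window is described below, was highest at 8 h too. The Tfrc window shown had a GC content of 64.8% and held none of the 5 motifs, nor did the second window listed for Tfrc.
Tfrc: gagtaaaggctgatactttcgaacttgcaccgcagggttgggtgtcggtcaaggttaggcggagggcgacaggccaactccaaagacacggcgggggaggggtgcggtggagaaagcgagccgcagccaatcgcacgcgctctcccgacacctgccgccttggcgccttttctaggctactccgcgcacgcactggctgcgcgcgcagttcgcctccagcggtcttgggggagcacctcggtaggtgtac
The signal in wild type went from 1938 untreated to 3867 at 4 h and 4359 at 8 h. In Nrdp1-/- it went from 1952 to 4347 and 5158. Both genotypes started at the same level (0.010 apart), and all 4 stimulated arrays lay above both untreated ones. Tfrc rose by 1.07 ± 0.10 at 4 h (limma, adjusted p = 6.42e-05) and by 1.28 ± 0.10 at 8 h (adjusted p = 1.4e-05), the latter 2.43-fold. Without the trend the 4 h call was lost (adjusted p = 0.0622). A dimmer probe set, with signals of 33.9 to 209, moved the same way by 1.47 and 2.15. The remaining Tfrc probe sets, 3 of them array controls, had signals between 1.96 and 125. Averaging the 3 probe sets that are not array controls gave 1.15 at 8 h (adjusted p = 0.0787).

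Of 10 tested genes of iron uptake and storage 0 were called at 4 h, with a median of -0.04. At 8 h Pcbp1, an iron chaperone, rose (0.44, adjusted p = 0.0086). The iron transporter gene Slc11a2 fell at 8 h (-0.71, adjusted p = 0.0123). Fth1, the ferritin heavy chain that stores iron, was at 0.04 at 4 h and -0.10 at 8 h. Ireb2 and Aco1, which encode the proteins that stabilise Tfrc mRNA when iron is low, were at -0.10 and -0.19 at 4 h, also without a call.

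Icam1 encodes the adhesion molecule ICAM-1, the ligand of the integrin LFA-1 that Itgal and Itgb2 form. Its promoter is shown because it held a motif match and because this gene was the 1 member called between genotypes. The window (RefSeq, GRCm38.p6, chr9:21015690-21015939, plus strand) had a GC content of 65.2%. The capitals mark a GAS match from 42 to 34 bases before the start, and the other motif patterns had no match there. For NF-kB this covers the fixed pattern searched only. Whether this window holds an NF-kB site spelled otherwise was not tested.
Icam1: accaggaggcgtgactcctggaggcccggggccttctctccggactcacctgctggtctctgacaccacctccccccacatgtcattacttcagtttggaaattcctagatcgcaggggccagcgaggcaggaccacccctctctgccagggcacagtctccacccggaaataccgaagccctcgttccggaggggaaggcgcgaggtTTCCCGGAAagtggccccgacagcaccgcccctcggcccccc
The Icam1 signal in wild type was 1502 untreated, 3020 at 4 h and 2336 at 8 h. In Nrdp1-/- it was 1747, 4013 and 3238. At every time the Nrdp1-/- array was the higher one, and both genotypes peaked at 4 h. Icam1 rose by 1.10 ± 0.11 at 4 h (limma, adjusted p = 7.25e-05) and by 0.76 ± 0.11 at 8 h (adjusted p = 0.000856), which is 2.15-fold and 1.7-fold. Without the trend both calls were lost (adjusted p = 0.0623 and 0.0771). The LFA-1 chains did not pass at 4 h, with Itgal at -0.13 (adjusted p = 0.425) and Itgb2 at -0.08 (adjusted p = 0.657). Of 9 tested adhesion genes of the Icam and selectin-ligand kind 0 rose and 3 fell at 4 h: the integrin chains Itgae (-0.61) and Itga4 (-0.59) and the selectin ligand Selplg (-0.38). Icam2, the constitutive relative of Icam1, was at 0.03.

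Cd44, the hyaluronan receptor that is high on memory and effector T cells, changed least. Its signal was 1732, 2006 and 2268 in wild type and 2076, 2521 and 2553 in Nrdp1-/- cells (untreated, 4 h, 8 h). The genotypes overlapped across times, since the untreated Nrdp1-/- array lay above the wild-type 4 h array by 0.049, less than the moderated SD of 0.11. The change was 0.25 ± 0.11 at 4 h (limma, adjusted p = 0.159) and 0.34 ± 0.11 at 8 h (adjusted p = 0.0438), the latter 1.27-fold. That 8 h call was lost without any of the 4 arrays untreated or at 8 h (adjusted p = 0.103 to 0.254), without the trend (0.16), without the filter (0.0537), with median centring (0.151) and with the mean of its probe sets (0.138). A second bright probe set changed by 0.20 and 0.27, a dimmer one (signals 151 to 298) by 0.36 and 0.62, and a probe set with signals of 0.714 to 11.2 was at background. The Cd44 promoter window (GC content 56.4%) held 1 of the 5 motifs, an NFAT match from 205 to 200 bases before the start.

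**Figure D2:**
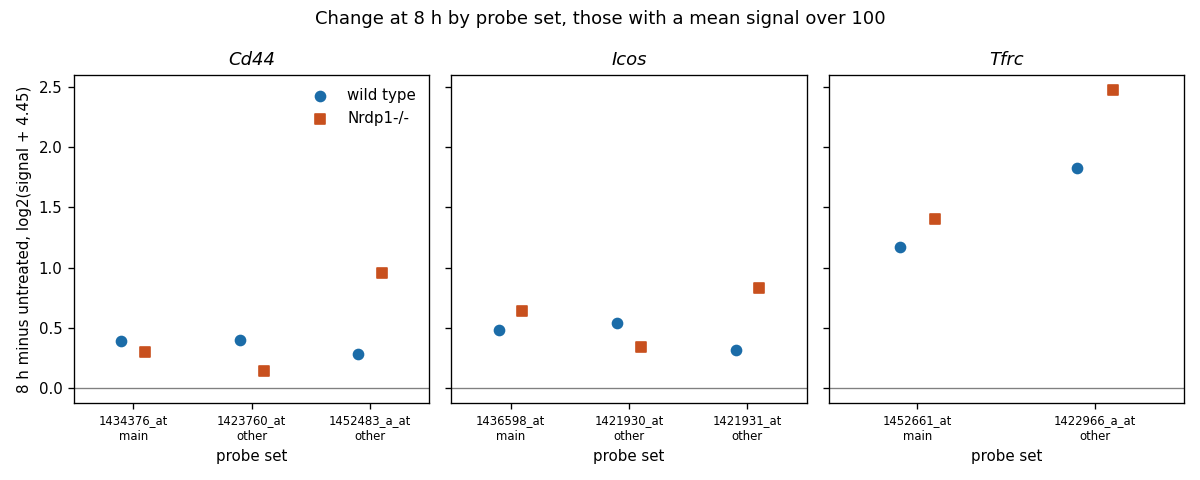
Change from untreated to 8 h, on the log2(signal + 4.45) scale, for each probe set with a mean signal over 100 of the 3 genes with several, wild type in blue circles and Nrdp1-/- in orange squares, 1 array difference per point. All differences lie above 0; the second Cd44 probe set has 0.40 in wild type and 0.14 in Nrdp1-/-, and the dimmer Tfrc probe set has 1.83 and 2.48.

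**Figure D3:**
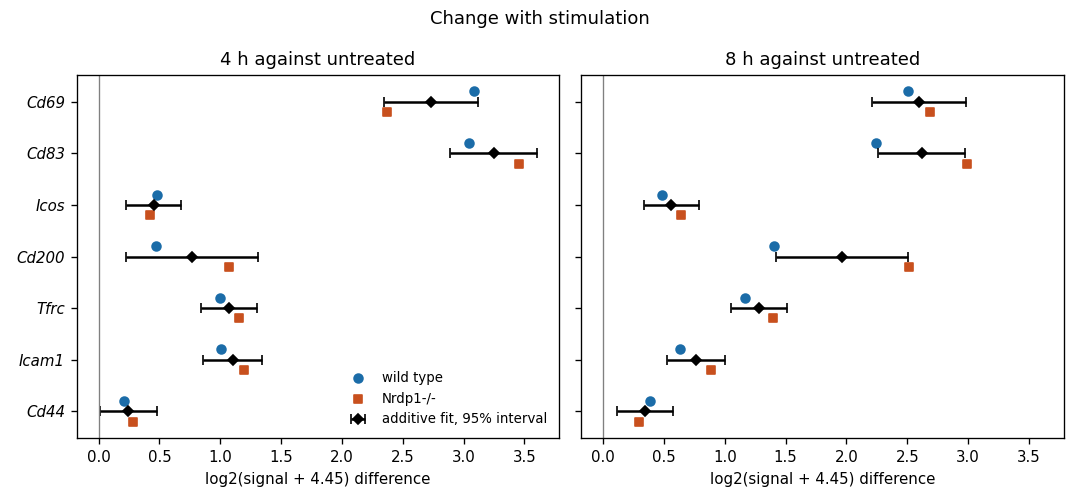
Differences from untreated at 4 h (left) and 8 h (right) on the log2(signal + 4.45) scale, with wild-type (blue circles) and Nrdp1-/- (orange squares) array differences and the additive fit with its 95% interval (black). The intervals of Cd69 and Cd83 lie highest; that of Cd200 moves from 0.23 to 1.31 at 4 h up to 1.42 to 2.50 at 8 h.

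Ly6a, the GPI-anchored protein Sca-1 that interferons induce on T cells, had no value to set beside these. Of 8 tested relatives in the Ly6 family 2 were called higher and 1 lower at 4 h. Ly6e, an interferon-inducible GPI-anchored protein, rose by 0.63 (adjusted p = 0.00203) and Lypd6b fell (-0.45, adjusted p = 0.0393). The other called gene, Ly6i, was kept by the filter through stimulated arrays only. Its signals were 10.9, 54.4 and 68.9 in wild type and 6.94, 85.9 and 152 in Nrdp1-/- cells, below the array median on both untreated arrays and on the wild-type 4 h array, so no fold is given at 4 h.

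Other costimulatory and activation-induced surface molecules were compared from a list of 34 genes, of which 27 were tested. At 4 h 14 of 27 rose and 2 fell, with a median of 0.57, and at 8 h 11 rose and 3 fell, with a median of 0.23. Among the risen genes at 4 h were Il2ra, the high-affinity IL-2 receptor chain (at least 9.6-fold), the PD-L1 gene Cd274 (3.29), the costimulator Tnfrsf9 (2.91) and the semaphorin Sema7a (2.87), whose untreated Nrdp1-/- signal of 39.9 was below the array median. The fallen genes at 4 h were Adgre5 (-0.87), which encodes the adhesion receptor CD97, and the CD2 family member Cd48 (-0.39). Of 10 tested binding partners of the members S1pr1 alone was called at 4 h, as fallen.

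Between 4 h and 8 h 0 of 7 members passed the threshold (limma), beside 0.0461% of all genes, and 3 were at an unadjusted p under 0.05, where 3.47% of all genes were so and higher and 4.9% so and lower. These were Cd200, which was higher at 8 h in both genotypes, by 0.93 and 1.45, and Cd83 and Icam1, which were lower in both. Cd83 differed by -0.80 in wild type and -0.46 in Nrdp1-/-, and Icam1 by -0.37 and -0.31. The fitted values were 1.19 ± 0.25 for Cd200, -0.63 ± 0.16 for Cd83 (adjusted p = 0.244) and -0.34 ± 0.11 for Icam1 (adjusted p = 0.402). With median centring Cd200 passed (adjusted p = 0.034). The untreated arrays do not enter these fitted values, which stayed the same without either of them. Without wild type at 8 h the Cd83 difference was -0.36, and without Nrdp1-/- at 8 h that of Cd200 was 0.78. Cd69 went down in wild type (-0.59) and up in Nrdp1-/- cells (0.32), with a fitted mean of -0.14 ± 0.18 (adjusted p = 0.908).

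Between genotypes 1 of 7 members, Icam1, was called, and the other 6 did not pass. Untreated, 5 of 7 had the higher signal in Nrdp1-/- cells, beside 47.4% of all genes. At 4 h 6 of 7 did (51.3% of all genes) and at 8 h 7 of 7 (46% of all genes). At all 3 times this held for the main probe set of 4 (Icos, Tfrc, Icam1 and Cd44), where 17.4% of all genes did so. It did not hold for every other probe set of Icos, Tfrc and Cd44. Icam1 was higher by 0.37 ± 0.09 (limma, adjusted p = 0.0383), 1.29-fold, with differences of 0.22, 0.41 and 0.47. It was the 1 call of 7 members, while 2.47% of all genes were called higher and 2.57% lower. That call was lost without any of the 4 stimulated arrays (adjusted p = 0.0613 to 0.142), with median centring (0.059), without the trend (0.241) or adjusted over 23968 probe sets (0.0701).

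Cd69 differed by 0.71 untreated, -0.01 at 4 h and 0.90 at 8 h, a mean of 0.535 ± 0.14 that did not pass (adjusted p = 0.0606). It passed with median centring (adjusted p = 0.0115). The mean was 0.81 without either 4 h array and 0.35 without either 8 h array. In their main probe sets Cd44 (0.25 ± 0.09, adjusted p = 0.148) and Icos (0.25 ± 0.08, adjusted p = 0.138) were higher at each time without a call. The second bright Cd44 probe set was higher by 0.67, 0.30 and 0.42, a mean of 0.46 (adjusted p = 0.0431 over probe sets). The dimmer Cd44 probe set was lower untreated (-0.13) and at 4 h (-0.23) and higher at 8 h (0.55). The dimmer Icos pair were lower either at 4 h (-0.09) or untreated (-0.17), and higher at the other times. Tfrc (0.14, interval -0.05 to 0.33), Cd83 (0.08, interval -0.21 to 0.38) and Cd200 (-0.01, interval -0.46 to 0.43) did not pass, and the last pair were lower in untreated Nrdp1-/- cells and higher at 8 h. The median difference of the 7 was 0.25, beside -0.01 over all genes.

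Among related genes, Il2ra (0.75, adjusted p = 0.0105), Tnfrsf9 (0.64, adjusted p = 0.0302) and the semaphorin Sema4a (0.58, adjusted p = 0.00534) were higher in Nrdp1-/- cells, 3 of 27 tested activation molecules. The untreated signals of Il2ra, 32.5 and 59.4, were both below the array median, and its stimulated ones were 545 and 916 in wild type and 804 and 1702 in Nrdp1-/- cells. The heat-stable antigen Cd24a, which B cells carry too, was the 1 lower (-1.22, adjusted p = 4.3e-05). Of 10 tested binding partners, the galectin Lgals1 was higher (0.51, adjusted p = 0.0105) and S1pr1 lower, and the Icam1 receptor chains Itgal (0.19, adjusted p = 0.235) and Itgb2 (0.31, adjusted p = 0.0612) were not called. In the iron list Slc25a37, a mitochondrial iron importer, was lower (-0.62, adjusted p = 0.00822). In the Ly6 family Ly6d, a B-lineage marker, was lower (-2.02, adjusted p = 4.31e-06), as was Lypd6b (-0.78, adjusted p = 0.00109). Among adhesion genes 1 of 9, Itgae, was lower (-0.42, adjusted p = 0.0223).

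**Figure D4:**
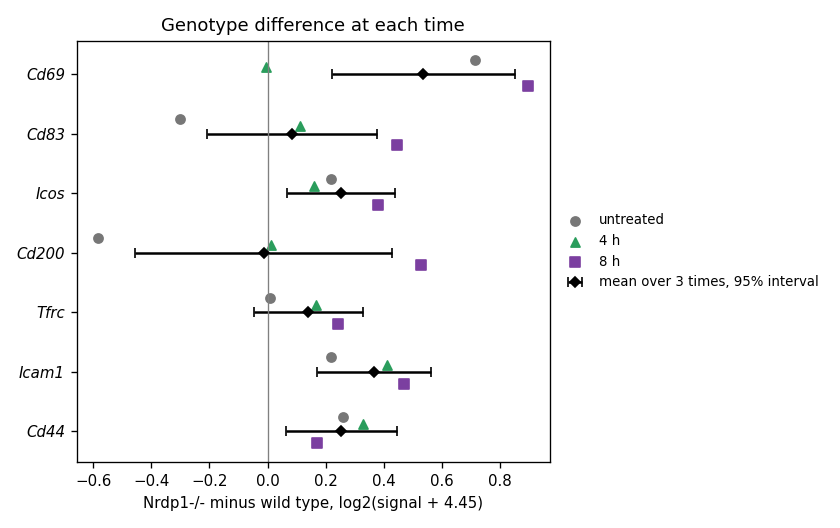
Nrdp1-/- minus wild type on the log2(signal + 4.45) scale for each gene, untreated (grey circles), 4 h (green triangles) and 8 h (purple squares), with the mean over the 3 times and its 95% interval from limma in black. At 8 h all 7 points lie above 0, whereas untreated Cd83 (-0.30) and Cd200 (-0.58) lie below it.

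Cells of other kinds carry these molecules too, and their markers differed between the genotypes. B cells and myeloid cells can express Cd44, Cd69, Cd83, Cd200 and Icam1, and memory CD8+ T cells are high in Cd44. The summed signal of 11 B cell markers was 13449 to 15732 in wild type and 2772 to 3086 in Nrdp1-/- arrays, and 8 of 8 tested were lower. Ms4a1 (CD20) was at 2346 to 2930 in wild type and 255 to 403 in Nrdp1-/- arrays. Pax5, a defining B cell factor, had signals of 31.9 to 65.1, level with the array median in untreated wild type and below it on every other array. The 13 myeloid markers summed to 1982 to 2211 in wild type and 3092 to 13605 in Nrdp1-/- arrays, with 6 of 12 tested higher. The lysozyme gene Lyz2 had 288 to 452 in wild type and 748 to 2865 in Nrdp1-/- arrays. Untreated Nrdp1-/- cells had the highest sum and the 8 h array the lowest of that genotype. Of 10 tested memory-like CD8 T cell markers 8 were higher in Nrdp1-/- cells, with sums of 55486 to 64224 against 46257 to 55160. Il2rb (0.20) and the bright Klrd1 (-0.31, limma, adjusted p = 0.0622) did not pass. Over all genes tested, 2.47% were called higher and 2.57% lower between genotypes, the shares to set beside each count of markers here. NK cell markers summed to 2218 to 2814 against 1504 to 1582, with 2 of 4 higher, and the NK receptor Ncr1 had signals of 4.96 to 44.8. Of 3 tested dendritic cell markers Itgax was higher in Nrdp1-/- cells (0.98, limma, adjusted p = 0.041). Zbtb46 (-0.46) and Ccr7 (-0.07) were not called. The part of these cells in the values of Cd69, Icam1, Cd44 and the other members was not tested, and in bulk RNA more cells of a kind and more RNA per cell cannot be told apart.

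**Figure D5:**
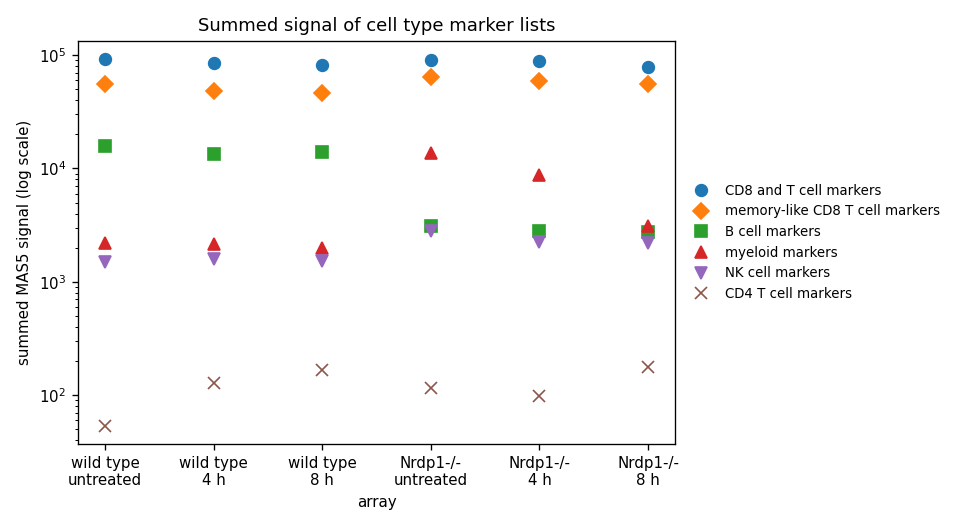
Summed MAS5 signal of each cell type marker list on each of the 6 arrays (log axis). B cell markers are lower on all 3 Nrdp1-/- arrays (2772 to 3086) than on the wild-type arrays (13449 to 15732), and myeloid markers are highest in untreated Nrdp1-/- cells at 13605 and lowest for that genotype at 8 h, at 3092.

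An added term tested if the genotypes differed by another amount after stimulation than before it, which leaves 1 residual degree of freedom. In that test 0 of 7 members passed (limma), beside 0.221% of all genes, and Cd200 and Cd83 were at an unadjusted p under 0.05, as were 1.68% of all genes with a positive value. Cd200 had the largest value at 0.85 ± 0.39, with an interval of 0.08 to 1.63 and an adjusted p of 0.9999. Cd83 followed at 0.58 ± 0.26, with an interval of 0.07 to 1.10. In main probe sets the rise to 8 h was larger in Nrdp1-/- than in wild-type cells for 6 of 7 members, all except Cd44, and for 47.1% of all genes, with no test of the count. For Cd200 it was 5.72-fold against 2.65-fold, and for Cd83 7.95-fold against 4.73-fold, each from 1 array difference per genotype. Other probe sets split: the dimmer Icos pair rose by 0.34 against 0.54 and by 0.83 against 0.31, Nrdp1-/- first. The second bright Cd44 probe set rose by 0.14 against 0.40, and the dimmer one by 0.96 against 0.285. The dimmer Tfrc probe set rose by 2.48 against 1.83.

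Over the 6 arrays some members followed each other closely. Cd69 and Tfrc correlated with Pearson's r = 0.963 and Cd69 and Cd83 with r = 0.96, whereas Cd200 and Icam1 had r = 0.541, the lowest of the pairs. These are descriptions over 6 arrays that share the stimulation, and carry no test. Among all tested genes, those most like Cd69 were Pprc1 (r = 0.999), Pebp1 and Pa2g4, and those most like Tfrc were Pwp1 (r = 0.999), Rangrf and Psma5. Icam1 was most like Egr1 (r = 0.995), an immediate early transcription factor, then Cdca7l and Cd160. Icos was most like Rpp30 (r = 0.999), Stx11 and Gadd45g, and Cd83 most like Ipo7 (r = 0.998), Aprt and Septin11. Cd200 was most like Cand1 (r = 0.996), Uqcrb and Eif1ax, and Cd44 most like Ifit3, an interferon-induced gene, Tfpi and Mdrl (each r = 0.995).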

How the data were processed

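Total RNA of 6 groups was labelled with the 3' IVT Express kit and hybridised to 1 array each, per the labels' protocols. The authors deposited linear intensities, the MAS5 signal of each probe set. MAS5 is named without a version in the submitters' processing notes, and the trimmed mean of 500.0 (lowest and highest 2% left out) shows that the authors scaled each array. Such scaling hides a change of most transcripts in 1 direction. Groups came from sample titles. Of 45101 probe sets 64 array controls were left out, 34945 had 1 symbol, 932 several, and 9160 were not listed in the platform annotation and are unnamed here. The brightest probe set stood for its gene, and genes reaching the array median on at least 2 arrays were kept. The pseudocount 4.45 is the 10th percentile of all values. limma 3.58.1 in R 4.3.3 (lmFit, eBayes with trend, Benjamini-Hochberg) fitted time and genotype with 2 residual and 8.99 prior degrees of freedom, and was tested on simulated data. For the added genotype-by-stimulation term the prior degrees of freedom were infinite, so it rests on the trend. A gene below the median on both untreated arrays has its rise as a bound against that median ("at least"). Named were all members, their partners, up to 4 genes of each list with the largest called change and the 3 genes most correlated with each member; others were named after their values were seen. The members and lists were chosen with earlier results of these data known. The number of arrays limits the precision. Alternatives were other normalization, pseudocounts, filters, probe sets, eBayes without trend, a 2-fold minimum and leaving out each array.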

Additional observations from a re-analysis of the deposited data

Results flagged for a closer look

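These results stood out because the array differences of the groups had opposite signs. The change of Cd69 from 4 h to 8 h was -0.59 in wild type and 0.32 in Nrdp1-/- cells, a difference of 0.90, which was not tested. Over the same interval Icos was level in wild type (-0.0008) and higher by 0.22 in Nrdp1-/- cells, a difference of 0.22, also not tested. The genotype difference of Cd200 was -0.58 untreated, 0.01 at 4 h and 0.53 at 8 h, so that stimulated and untreated cells differed by 0.85 on the log2 scale. That of Cd83 was -0.30, 0.11 and 0.45, a difference of 0.58. The test of the added genotype-by-stimulation term called neither of these 2 genes (limma, adjusted p = 0.9999 for both).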

How the results depend on the processing

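With eBayes without the trend 2 members passed at 4 h, 3 at 8 h and 0 between genotypes, where 0.766%, 0.95% and 0.388% of all genes were called higher. With a 2-fold minimum 4 passed at 8 h (2.87% of all genes) and 0 between genotypes (0.969%). Median centring gave 1 call between 8 h and 4 h, Cd200 (0.0646% of all genes higher), and the 4 stimulated arrays alone gave 2 between genotypes (2.6% higher). How many members passed varied with the array left out in each comparison. The 4 h change with an array left out ran from 2.32 to 3.14 for Cd69, 2.96 to 3.54 for Cd83, 0.98 to 1.17 for Tfrc and 0.38 to 0.52 for Icos. It ran from 0.34 to 1.20 for Cd200 and from 0.19 to 0.30 for Cd44. Some uncalled values changed sign. Between 8 h and 4 h Cd69 ran from -0.54 to 0.27 with an array left out, 0.14 without wild type at 8 h. Tfrc was at -0.27 over that interval with the mean of its probe sets, -1.70 in a probe set never above the array median and -1.15 in the middle control probe set, which was at -0.038 for 8 h against untreated. Between genotypes Cd83 ran from -0.10 to 0.28 and Cd200 from -0.28 to 0.27 with an array left out, Cd200 being at 0.27 in stimulated arrays alone and 0.0024 with the larger pseudocount. Tfrc was at -0.10 in its second probe set and at -0.21 and -0.55 in the 5' and middle control probe sets. The added genotype-by-stimulation value of Cd44 was 0.0076 with median centring and 0.17 with the mean of probe sets. The cause of these changes was not tested. With an array left out, the array left alone at its time is assumed to vary like the others, and the added term cannot be fitted. Such a fit also estimates its own spread and prior degrees of freedom, so its p can change where the difference does not. No paired analysis was possible because each group has 1 array and the numbers pair nothing.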
